A study of Homo sapiens with 9 samples.

Results

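The immediate-early genes EGR1, EGR2, EGR3, IER2, IER3, IER5, KLF6, KLF10, PHLDA1 and SRF were followed in LNCaP cells for 24 h after NRG1 was added. The 10 genes, like the gene lists used below, were picked by name with earlier results of these data known. All 10 were found among the 37351 genes of the count table. They made up 9 of the 19250 genes with enough reads to be tested, since IER3 was too low. LNCaP is a human prostate cancer line that was derived from a lymph node metastasis. Cells were starved in medium that lacked serum and calcium for 6 to 12 h, treated with recombinant NRG1 at 15 ng/mL and collected at 0, 12 or 24 h, with 3 libraries at each time. The libraries are labelled as biological replicates, and triplicate wells were plated, so p-values measure the spread between these wells. NRG1 is a secreted ligand of the receptor HER3. Untreated cells of 12 or 24 h were not analysed here, so the ligand and the hours spent without serum cannot be told apart in any comparison with 0 h. In bulk RNA, fewer cells with a transcript and less transcript per cell cannot be told apart either.

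Immediate-early genes are transcribed within minutes of a stimulus by factors already present in the cell, without the need for new protein. In growth factor signaling, ERK phosphorylates ternary complex factors such as ELK1, which stand beside SRF on CArG boxes in front of genes such as EGR1. The transcripts are known to be short-lived, and their products include EGR co-repressor genes, phosphatases and mRNA decay factors that limit the response. The comparisons addressed which of these genes stood above their starting level long after the ligand was added.

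The promoter sequences that carry CArG boxes are shown first, since SRF, which binds them, is itself among the 10 genes. RefSeq promoter windows (GRCh38.p14), from 250 bases before to 50 bases after a transcription start, were matched by symbol for 7 of the genes in 10 windows. EGR3, KLF10 and IER3 had no entry. A CArG box was in a window of 3 of the 7 genes, and 1.29% of all 35116 windows held one. EGR1 and SRF each had 2 boxes in a window, as did 0.0313% of all windows, in 11 genes of 27305. The stretches below run 5′ to 3′ on the strand of the gene, lie outside annotated exons and have the CArG boxes in capitals.
EGR1, chr5:138465349-138465478, plus strand: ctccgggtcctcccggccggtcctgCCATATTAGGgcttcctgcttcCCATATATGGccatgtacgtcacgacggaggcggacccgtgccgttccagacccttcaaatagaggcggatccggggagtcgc
EGR2, chr10:62816374-62816496, minus strand: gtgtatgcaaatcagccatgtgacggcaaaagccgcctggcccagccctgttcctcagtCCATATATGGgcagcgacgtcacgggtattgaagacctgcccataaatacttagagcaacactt
SRF, chr6:43171139-43171268, plus strand: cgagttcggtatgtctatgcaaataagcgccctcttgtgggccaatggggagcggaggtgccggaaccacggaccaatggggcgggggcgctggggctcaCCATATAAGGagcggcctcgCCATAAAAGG

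Counted from the start site, the EGR1 boxes lay at -105 to -96 and at -83 to -74. The EGR2 box lay at -71 to -62 of the third of the 3 EGR2 starts that had a window, and its letters were those of the EGR1 box nearer the start. The SRF boxes lay at -30 to -21 and at -10 to -1. A further 3 motifs were searched on both strands. They were CCGGAA, a form of the ETS site, the CRE core TGACG and the EGR site GCGNGGGCG, which 17.2%, 24.6% and 9.43% of all windows held. In EGR1 and at start 3 of EGR2, TGACG stood on either side of the boxes. IER2, IER5, PHLDA1 and SRF held CCGGAA, IER2 and SRF held TGACG, and KLF6, SRF, EGR1 and start 2 of EGR2 held the EGR site. No CArG box was in the windows of IER2, IER5, KLF6 and PHLDA1, which says only that its letters are not in these windows. Likewise CCGGAA was not in the windows of EGR1, EGR2 and KLF6. Other forms of the ETS site were not searched, so these genes cannot be said to lack one.

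**Figure D1:**
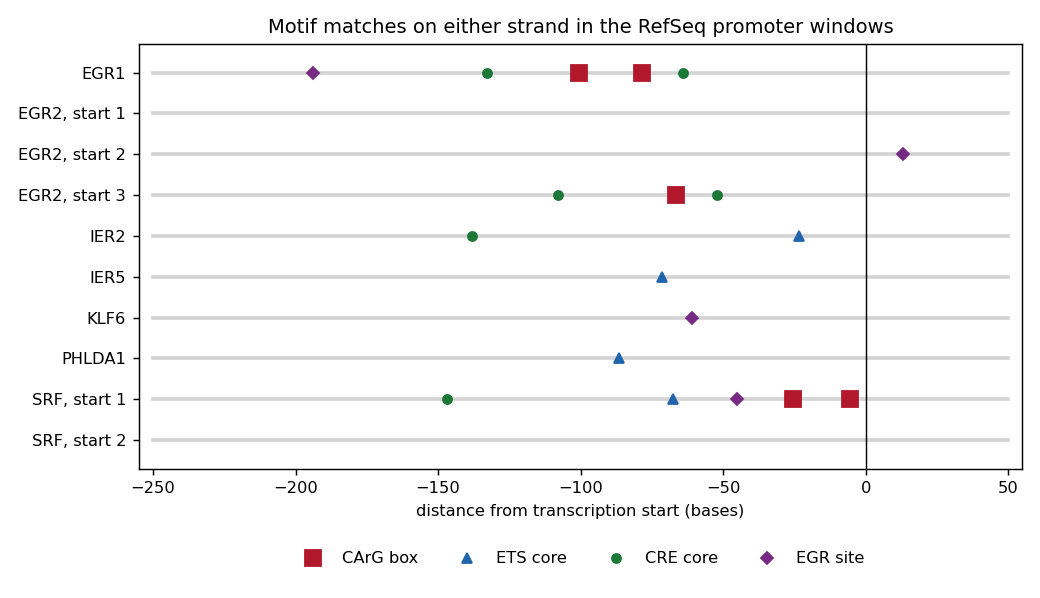
Motif matches on either strand in the 10 RefSeq promoter windows of 7 genes, plotted by distance from the transcription start in bases. Squares mark CArG boxes, triangles CCGGAA (labelled ETS core, though only a form of the ETS site), circles the CRE core and diamonds the EGR site. EGR1 and SRF each hold 2 CArG boxes, EGR2 holds 1 at start 3, and the other 4 genes hold none.

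At 12 h, 5 of the 9 tested genes were higher than at 0 h with an edgeR adjusted p of at most 0.05, namely EGR1, EGR2, IER2, KLF10 and SRF. By the same rule 10.6% of all tested genes were higher and 8.16% were lower. At 24 h the same 5 genes were higher and PHLDA1 was lower, beside 11.6% and 9.48% of all tested genes. A change of at least 1.5-fold was also passed by EGR1 and EGR2 at both times, and 0.992% of all tested genes rose past it at 12 h and 1.53% at 24 h. EGR2 is in these counts but entered the test only through its 12 and 24 h libraries, so it had to differ from 0 h. The median log2 fold change of the 9 genes was 0.14 at 12 h and 0.23 at 24 h, and over all tested genes it was -0.0084 and -0.0068. Between 12 and 24 h, 0 of the 9 genes differed by edgeR's adjusted p, 0 by its unadjusted p under 0.05 and 0 by DESeq2. In that comparison 6.08% of all tested genes passed edgeR's adjusted p, 3.03% higher and 3.05% lower at 24 h. Libraries without overlap were common. Those of 12 h all lay above those of 0 h in 17.5% of all tested genes and all below them in 15.3%. For 24 h against 0 h these shares were 17.3% and 16.2%.

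Libraries held 47016302 to 60985825 counts, and the 3 libraries of 0 h were the deepest. All 8 luminal prostate markers of a fixed list were detected, with summed levels at 0, 12 and 24 h of 4505 to 4636, 4698 to 4746 and 4330 to 4539 CPM, where CPM is the count relative to the scaled library size. Basal and leukocyte lists summed to at most 0.325 and 0.435 CPM in a library. A fibroblast list summed to 22.9 to 27.6 CPM, and an endothelial list fell from 12.7 to 13.7 CPM at 0 h to 6.90 to 7.95 CPM at 24 h, in both cases mostly through 1 gene (COL1A1 and VWF). Their part in the results was not tested.

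**Figure D2:**
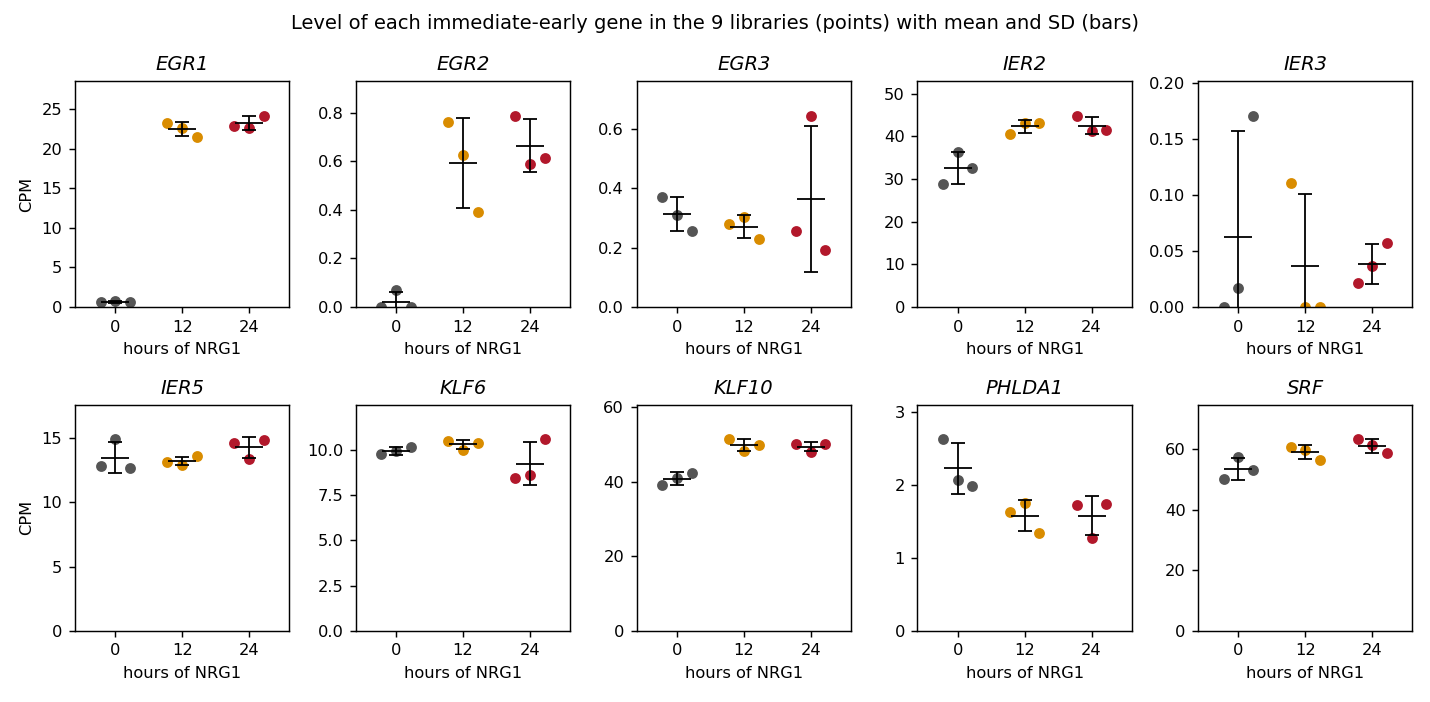
Level in CPM of each of the 10 genes in the 9 libraries at 0, 12 and 24 h of NRG1, with points for libraries and bars for mean and SD (n = 3), on a vertical axis of its own for each gene. EGR1 and EGR2 lie near 0 at 0 h and above it in all 6 later libraries, whereas the libraries of EGR3, IER3, IER5 and KLF6 overlap between times.

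EGR1 (ENSG00000120738.8, chromosome 5, 138465479 to 138469303, plus strand, GRCh38) encodes a zinc finger factor that binds GC-rich sites and is a classic immediate-early target of ERK. It stood at 0.597, 0.828 and 0.651 CPM in the 0 h libraries, from 37, 48 and 38 counts. The 12 h libraries were at 23.2, 22.7 and 21.5 CPM and the 24 h libraries at 22.8, 22.5 and 24.2 CPM. Every later library exceeded every 0 h library, and the libraries of 12 and 24 h overlapped. The level was 32.4 times that of 0 h at 12 h (95% interval 28.1 to 37.4) and 33.5 times at 24 h (29.1 to 38.6), with edgeR adjusted p of 1.11e-29 and 6.9e-30. At both times it ranked 5 among all 19250 tested genes by log2 fold change. Between 12 and 24 h EGR1 changed by 0.047 on the log2 scale (standard error 0.062, edgeR adjusted p 0.77), that is by 3.28% with a 95% interval of -5.42 to 12.8.

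EGR2 (ENSG00000122877.17, chromosome 10, 62811996 to 62919900, minus strand), a paralog best known for its part in myelination, was near the limit of detection before NRG1. Its counts were 0, 4 and 0 at 0 h, then 41, 33 and 19 at 12 h and 37, 32 and 32 at 24 h. The later libraries ran from 0.392 to 0.789 CPM, and the highest 0 h library was at 0.0690 CPM, where 3 counts give 0.0518 CPM. All later libraries lay above all 0 h libraries, and 12 and 24 h overlapped. Summed counts gave a ratio to 0 h of 26.7 at 12 h (95% counting interval 10.1 to 100.1) and of 29.4 at 24 h (11.1 to 110), from 93 and 101 counts against 4. The fitted log2 fold changes were 4.59 and 4.74, with standard errors of 0.63 and 0.62 and edgeR adjusted p of 8.49e-07 and 2.69e-07. Without 0 h replicate 2, which holds all 4 counts, the remaining 0 h libraries are at 0 and the fit gave 8.001 and 8.15, and without either of the others it gave 4.02 to 4.06 at 12 h and 4.18 to 4.22 at 24 h. EGR2 entered the test only through its 12 and 24 h libraries, so it had to differ from 0 h, and a filter of at least 10 counts in every library removed it. Per kilobase of exon, EGR1 reached 7.39 CPM at 24 h and EGR2 0.179 CPM, so the paralogs stood far apart in level while their intervals of fold change overlapped. The exon length of EGR2 came from a gene model with another span than the counted gene, so its level per kilobase is approximate.

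EGR3 (ENSG00000179388.9, chromosome 8, 22687659 to 22693480, minus strand), another zinc finger paralog, did not pass the test at either time. The 0 h and 12 h libraries of EGR3 overlapped. They were at 0.371, 0.311 and 0.257 CPM at 0 h and at 0.278, 0.303 and 0.227 CPM at 12 h. At 24 h they were at 0.256, 0.644 and 0.192 CPM, so 1 library was the highest of all 9 and another was the lowest. Against 0 h it changed by -0.21 on the log2 scale at 12 h (edgeR adjusted p 0.82) and by 0.23 at 24 h (edgeR adjusted p 0.79). Without 24 h replicate 2, the 24 h value turned to -0.49 and the change from 12 to 24 h turned from 0.44 to -0.27. With 10 to 35 counts a library, the 95% intervals ran from -1.15 to 0.72 at 12 h and from -0.67 to 1.13 at 24 h, so a change of 1.5-fold in either direction was not detectable at this depth. The lncRNA gene ENSG00000253125.1 overlaps EGR3 and had 52 counts where EGR3 had 155, so reads of the pair are uncertain. The longest transcripts of EGR1 and EGR2 shared 82.6% identity over 305 bases and those of EGR2 and EGR3 80.3% over 346 bases, below the 95% over 150 bases that was called near-identical.

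**Figure D3:**
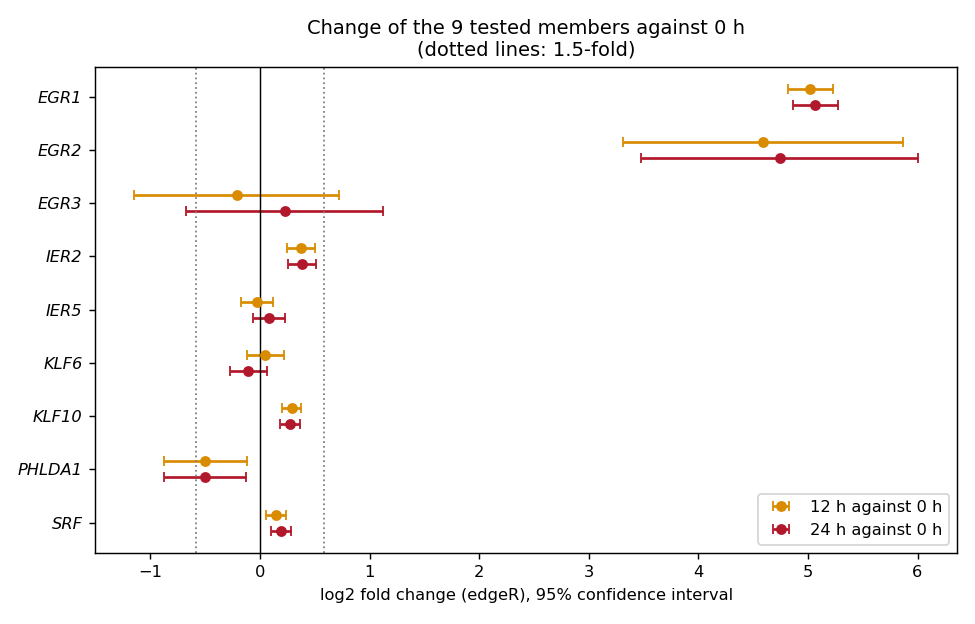
Fitted log2 fold change against 0 h (edgeR, horizontal axis) of the 9 tested genes at 12 and 24 h, with bars for 95% confidence intervals and dotted lines at 1.5-fold. EGR1 and EGR2 lie between 4.59 and 5.07, the other 7 genes lie between -0.50 and 0.38, and EGR2 and EGR3 have the widest intervals.

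EGR proteins are held in check by the co-repressors NAB1 and NAB2. In a list of these genes with EGR4 and WT1, 3 were tested, and the median log2 fold change was 0.15 at 12 h and 0.27 at 24 h. Over the 3 times, NAB1 went from 8.41 ± 0.960 CPM to 9.32 ± 0.272 and 10.2 ± 0.863, and NAB2 from 7.93 ± 0.942 to 8.2 ± 0.379 and 9.48 ± 1.12 (SD, n = 3 each). Both passed at 24 h, NAB1 at 0.27 (edgeR adjusted p 0.0223) and NAB2 at 0.26 (0.0412) on the log2 scale, and neither passed at 12 h (0.15 and 0.050). The call of NAB1 was lost without 0 h replicate 2 (0.22), 0 h replicate 3 (0.22), 24 h replicate 1 (0.25) or without 24 h replicate 3 (0.22). That of NAB2 was lost without 0 h replicate 1 (0.17), 0 h replicate 3 (0.28), 12 h replicate 1 (0.26), 24 h replicate 2 (0.28) or without 24 h replicate 3 (0.16), and also with DESeq2 (adjusted p 0.0632) and with the 6 libraries alone (edgeR adjusted p 0.0520). The change of each from 12 to 24 h did not pass.

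SRF (ENSG00000112658.8, chromosome 6, 43171269 to 43181506, plus strand), the factor that binds CArG boxes and is itself an immediate-early gene, was abundant before NRG1 and rose by a small margin. At 0 h its libraries were at 50.1, 57.3 and 53.1 CPM. They were at 60.8, 59.7 and 56.5 CPM at 12 h and at 63.3, 61.3 and 58.7 CPM at 24 h. The 24 h libraries all lay above those of 0 h, and 1 library of 12 h lay below the highest of 0 h. SRF was 10.4% higher at 12 h (95% interval 3.65 to 17.6, edgeR adjusted p 0.0214) and 14.2% higher at 24 h (7.24 to 21.7, edgeR adjusted p 0.0015). The 12 h log2 fold change of 0.14 lost its call without 0 h replicate 1 (0.097), 0 h replicate 3 (0.14), 12 h replicate 1 (0.12) or without 12 h replicate 2 (0.14). At 24 h the call was kept in all of the alternatives run, with log2 fold changes from 0.15 to 0.24.

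SRF works with ternary complex factors (ELK1, ELK3 and ELK4) on immediate-early genes and with myocardin-related factors (MRTFA and MRTFB) on genes of the cytoskeleton. Of these 5 cofactors, ELK1 and ELK3 were higher at 12 h and ELK4 and MRTFB were lower, and at 24 h ELK3 was higher and ELK4 and MRTFB were lower. The shares over all tested genes were 10.6% higher and 8.16% lower at 12 h, and 11.6% and 9.48% at 24 h. ELK3 had log2 fold changes of 0.39 and 0.44, from 7.77 ± 0.310 CPM to 10.2 ± 0.183 and 10.5 ± 0.482. Those of ELK4 were -0.22 and -0.20, those of MRTFB -0.34 and -0.18, and that of ELK1 at 12 h was 0.17. The 24 h call of MRTFB was lost without 0 h replicate 1 (-0.13), 0 h replicate 3 (-0.19), 24 h replicate 1 (-0.14) or without 24 h replicate 2 (-0.18) and also without scaling (edgeR adjusted p 0.0706), and ELK1 passed at 24 h without 0 h replicate 2 (0.12). All of these cofactors but ELK3 were named after their values were seen.

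Among 16 cytoskeletal targets of SRF and MRTF, 5 were higher at 12 h (ZYX, TAGLN2, CFL1, TPM4 and FLNA), and at 24 h 4 were higher (ZYX, FLNA, ACTN1 and CALD1) and TPM1 was lower. Over all tested genes 10.6% were higher and 8.16% lower at 12 h, and 11.6% and 9.48% at 24 h. The median log2 fold change of the list was 0.073 at both times. ZYX, which encodes the focal adhesion protein zyxin, rose over the 3 times from 50.6 ± 1.46 CPM to 74.5 ± 1.26 and 100.1 ± 6.55, a log2 fold change of 0.56 and then 0.99. It was the only gene of the list past 1.5-fold at 24 h, and the other genes named here, chosen after their values were seen, had log2 fold changes of -0.11 to 0.23 where they passed. FLNA lost its 12 h call without 0 h replicate 3 (0.095), 12 h replicate 1 (0.12) or without 12 h replicate 3 (0.078) and also without scaling (edgeR adjusted p 0.0603), and CALD1 its 24 h call without 0 h replicate 3 (0.079), 24 h replicate 2 (0.087) or without 24 h replicate 3 (0.072) and also with no filter (edgeR adjusted p 0.0763). TPM1 lost its call without any one of the 0 h libraries, without 12 h replicate 3 and without 24 h replicates 2 and 3, with log2 fold changes of -0.12 to -0.094, and with DESeq2, no filter, the 6 libraries alone or thinned libraries (adjusted p 0.0542 to 0.0642).

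KLF10 (ENSG00000155090.15, chromosome 8, 102648784 to 102655725, minus strand), first described as an early gene of the TGF-beta response, rose by 12 h and did not differ by the test between 12 and 24 h. At 0 h its libraries were at 39.1, 40.9 and 42.4 CPM. They were at 51.3, 48.2 and 49.9 CPM at 12 h and at 49.97, 47.9 and 50.2 CPM at 24 h. All later libraries lay above all 0 h libraries, and 12 and 24 h overlapped. The rise was 22.2% at 12 h (95% interval 15.0 to 29.8, edgeR adjusted p 3.79e-06) and 21.0% at 24 h (13.9 to 28.5, edgeR adjusted p 6.94e-06). Between these times it changed by -0.996% (-6.79 to 5.16). KLF10 overlaps no other gene of the table.

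KLF6 (ENSG00000067082.15, chromosome 10, 3775996 to 3785281, minus strand), a zinc finger factor with known splice forms in prostate, did not pass in any comparison. Its libraries were at 9.74, 9.90 and 10.2 CPM at 0 h, at 10.5, 9.99 and 10.4 CPM at 12 h, and at 8.46, 8.62 and 10.6 CPM at 24 h. At 24 h, 2 libraries were below all others and 1 was above all others. The log2 fold changes were 0.051 at 12 h (edgeR adjusted p 0.74) and -0.11 at 24 h (edgeR adjusted p 0.42). The change from 12 to 24 h, -0.16 with a 95% interval of -0.33 to 0.013, had the smallest adjusted p of the 9 genes in that comparison (edgeR adjusted p 0.317).

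Of 12 further KLF genes 11 were tested, and 3 were higher at both times (KLF5, KLF11 and KLF16), with KLF9 lower at 12 h and KLF13 lower at 24 h. None of them passed 1.5-fold, and the median log2 fold change of the list was -0.046 at 12 h and 0.088 at 24 h. These genes were named after their values were seen. Over all tested genes 10.6% were higher and 8.16% lower at 12 h, and 11.6% and 9.48% at 24 h. KLF16 rose by 0.33 and 0.30 on the log2 scale, KLF11 by 0.16 and 0.19 and KLF5, an epithelial growth regulator, by 0.56 and 0.53 from 1.85 ± 0.370 CPM. KLF9 stood at -0.21 on that scale at 12 h, and at 24 h its value of -0.10 (edgeR adjusted p 0.0511) passed without 0 h replicate 3 (-0.12). At 24 h KLF9 also passed without scaling (edgeR adjusted p 0.0499) and with at least 10 counts in every library (0.0346). The replicate number as a block (0.0396) and thinned libraries (0.0263) gave a pass too. KLF13 had -0.16 at 24 h, which did not pass without 24 h replicate 3 (-0.098). KLF5 lost its 12 h call without 0 h replicate 1 (0.44) or without 12 h replicate 2 (0.53) and its 24 h call without 0 h replicate 1 (0.42), 0 h replicate 3 (0.49) or without 24 h replicate 1 (0.48). KLF11 lost its 12 h call without 0 h replicate 1 (0.15), 0 h replicate 2 (0.15), 12 h replicate 1 (0.13) or without 12 h replicate 3 (0.16) and its 24 h call without 24 h replicate 1 (0.16).

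IER2 (ENSG00000160888.7, chromosome 19, 13150411 to 13154911, plus strand), a small nuclear protein gene that is switched on by growth factors in many cells, was already abundant and rose further. At 0 h it was at 28.8, 36.2 and 32.7 CPM. The libraries were at 40.5, 43.2 and 43.2 CPM at 12 h and at 44.9, 41.3 and 41.4 CPM at 24 h. All later libraries lay above all 0 h libraries, and the 0 h libraries were the most spread. The rise was 29.9% at 12 h (95% interval 19.1 to 41.7, edgeR adjusted p 6.95e-05) and 30.5% at 24 h (19.6 to 42.3, edgeR adjusted p 4.46e-05). Between these times IER2 changed by 0.467% (-7.84 to 9.52). Its transcript has stretches identical to 2 annotated loci that are not in the table, so reads from them could be counted with IER2.

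IER5 (ENSG00000162783.11, chromosome 1, 181088700 to 181092900, plus strand), an IER2 relative linked to the heat shock response, did not pass at either time. Its libraries were at 12.9, 14.9 and 12.7 CPM at 0 h, at 13.1, 12.9 and 13.6 CPM at 12 h, and at 14.6, 13.4 and 14.9 CPM at 24 h. The groups overlapped throughout. The change against 0 h was -2.06% at 12 h (95% interval -11.5 to 8.36, edgeR adjusted p 0.84) and 5.81% at 24 h (-4.3 to 17.0, edgeR adjusted p 0.48), so intervals excluded a change of 1.5-fold. Without 0 h replicate 2 the 12 h log2 fold change of -0.030 turned to 0.049. The related gene IER5L, named after its values were seen, had log2 fold changes of -0.058 and 0.19 and did not pass.

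IER3 (ENSG00000137331.12, chromosome 6, 30743199 to 30744548, minus strand), a stress and survival gene, was barely detected. It had 0, 1 and 10 counts at 0 h, 6, 0 and 0 at 12 h, and 1, 2 and 3 at 24 h, with 3 counts worth 0.0484 to 0.0639 CPM in these libraries. No library of 24 h exceeded 3 counts, and 1 library each of 0 and 12 h did. IER3-AS1 overlaps IER3 and had 420 counts in all where IER3 had 23, and HCG20 also overlaps it and had 17, so even these reads are uncertain. No rise of IER3 at 12 or 24 h was detectable at this depth.

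PHLDA1 (ENSG00000139289.14, chromosome 12, 76025447 to 76031776, minus strand), a pleckstrin homology protein gene known as a target of ERK signaling, passed as lower at 24 h only, and by a narrow margin. Its libraries were at 2.63, 2.07 and 1.99 CPM at 0 h. They were at 1.63, 1.76 and 1.34 CPM at 12 h and at 1.73, 1.27 and 1.75 CPM at 24 h. All later libraries lay below all 0 h libraries, and 0 h replicate 1 was the highest. Such a separation downward was seen in 15.3% of all tested genes at 12 h and in 16.2% at 24 h. The log2 fold change was -0.50 at both times, with 95% intervals of -0.87 to -0.12 at 12 h and -0.88 to -0.12 at 24 h. The edgeR adjusted p of 0.0498 at 24 h passed the limit and that of 0.0561 at 12 h missed it. The 24 h call was lost with DESeq2 (adjusted p 0.0653), with the replicate number as a block (edgeR adjusted p 0.0565), with other scaling, no filter, the 6 libraries alone or thinned libraries (edgeR adjusted p 0.0501 to 0.0809) and in 8 of the 9 fits without 1 library, with log2 fold changes of -0.57 to -0.36, the smallest of them without 24 h replicate 2 or without 0 h replicate 1. At 12 h it passed without 24 h replicate 2 and in a fit of the 6 libraries alone, with edgeR adjusted p of 0.0488 and 0.0481. The PHLDA1 transcript shares 468 identical bases with PHLDA1-AS1, which was not among the counted genes. Reads from PHLDA1-AS1 could thus be counted with PHLDA1.

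The relatives of PHLDA1 differed in direction. PHLDA2, an imprinted gene that restrains placental growth, rose over the 3 times from 16.3 ± 0.605 CPM to 51.2 ± 2.06 and 49.4 ± 1.79, or by 1.65 and 1.60 on the log2 scale (edgeR adjusted p 1.9e-24 and 2.28e-24). PHLDA3, a p53 target named after its values were seen, had log2 fold changes of -0.11 and -0.16, and at 12 h its call was lost without 0 h replicate 2 (-0.092), 0 h replicate 3 (-0.11), 12 h replicate 1 (-0.11), 12 h replicate 2 (-0.097) or without 12 h replicate 3 (-0.11). The same call was also lost with no filter (edgeR adjusted p 0.0656). The list of IER5L, PHLDA2 and PHLDA3 had a median of -0.058 at 12 h and 0.19 at 24 h on the same scale.

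Ordered by CPM per kilobase of exon, the genes at 0 h were SRF (12.6), KLF10 (10.7), IER2 (10.6), IER5 (3.21), KLF6 (1.62), PHLDA1 (0.377), EGR1 (0.221), EGR3 (0.0622), IER3 (0.0466) and EGR2 (0.0062). At 24 h the order was SRF (14.4), IER2 (13.8), KLF10 (12.9), EGR1 (7.39), IER5 (3.40), KLF6 (1.502), PHLDA1 (0.267), EGR2 (0.179), EGR3 (0.0723) and IER3 (0.0286). EGR1 moved from place 7 to place 4 and EGR2 from 10 to 8. Libraries of KLF10 and IER2 overlapped in this level at 0 h, as did those of EGR3 and IER3 and those of IER3 and EGR2. The place of EGR2 at 0 h rests on 0, 4 and 0 counts, and its exon length came from a gene model with another span. At 24 h the libraries of SRF and IER2 overlapped in this level, as did those of EGR3 and IER3, and the other neighbors did not. SRF, IER2 and KLF10 were thus the highest per length both before and after NRG1, and EGR1 rose to a level between those of KLF10 and IER5.

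The genes with changes most like those of EGR1 and EGR2 were found by distance. Likeness was the distance between log2 fold changes at 12 and 24 h over the 9 libraries, among the 11399 (EGR1) and 11400 (EGR2) tested genes whose mean log2 CPM reached 2, and both fold changes share the 0 h libraries. The nearest to EGR1 were ETV5 (distance 0.27), FOS (0.82) and DUSP6 (0.86), and the nearest to EGR2 were FOS (0.28), DUSP6 (0.35) and ETV5 (0.48). The distances of EGR2 are smaller than the standard errors of its fold changes, 0.63 and 0.62, and rest on 0 h replicate 2, without which EGR2 was fitted at 8.001 and 8.15 and FOS at 4.21 and 4.49. FOS, the AP-1 subunit, went from 1.41 ± 0.244 CPM to 28.6 ± 1.10 and 34.8 ± 2.17. Unlike EGR1, whose change from 12 to 24 h did not pass, FOS rose again by 0.28 on the log2 scale (edgeR adjusted p 0.00199), ETV5 by 0.40 and the ERK phosphatase gene DUSP6 by 0.42. Whether EGR1 differed from these genes in that change was not tested.

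**Figure D4:**
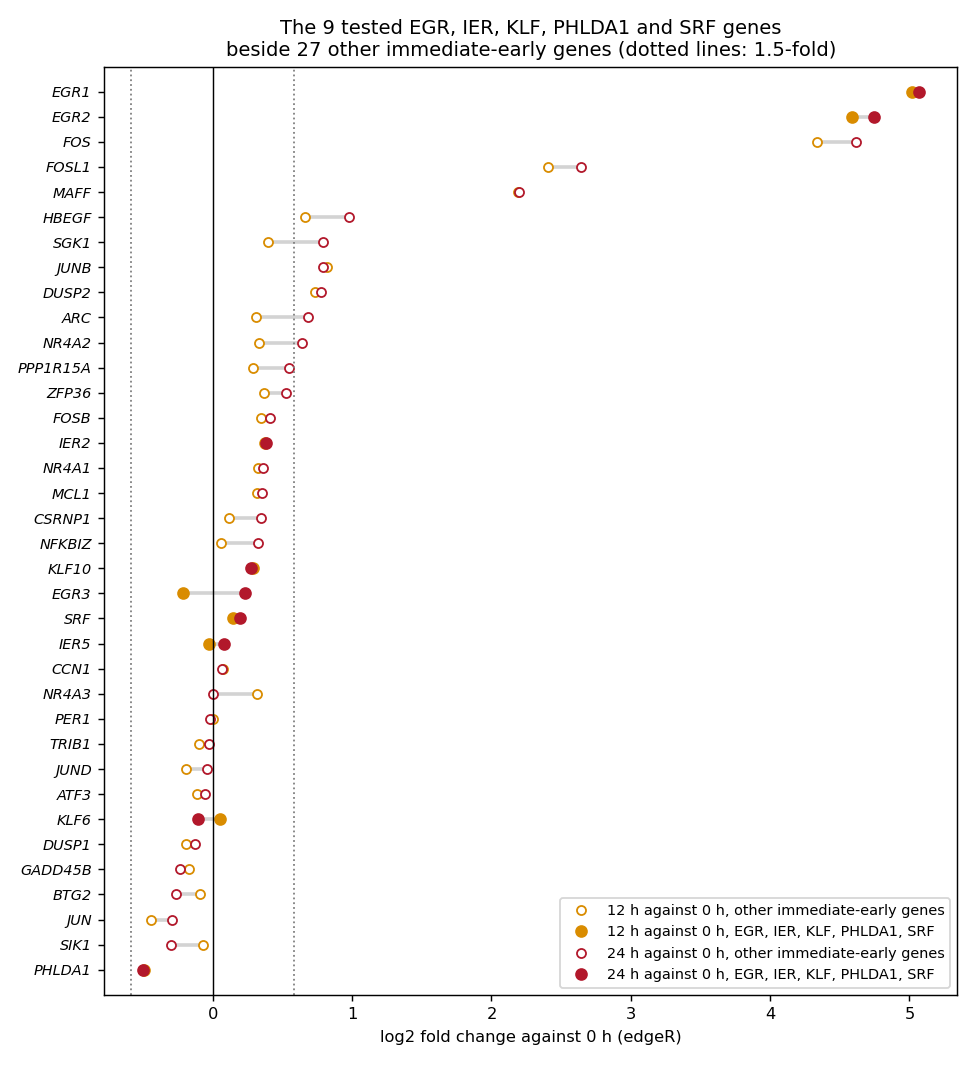
Fitted log2 fold changes against 0 h (edgeR, horizontal axis) at 12 h and 24 h, joined by grey lines, of the 9 tested genes (filled) and 27 other immediate-early genes (open), ordered by the 24 h value, with dotted lines at 1.5-fold. EGR1 and EGR2 are at the top with FOS, FOSL1 and MAFF below, and most genes lie between the dotted lines.

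A list of 28 other immediate-early genes, 27 of them tested, shows where the 10 genes stand in their class. At 12 h 10 were higher and 4 lower, and at 24 h 11 were higher and 2 lower, with median log2 fold changes of 0.31 and 0.36. The same 6 genes passed 1.5-fold upward at both times: FOS, FOSL1 (2.41 and 2.64), MAFF (2.19 and 2.20), JUNB (0.82 and 0.79), DUSP2 (0.73 and 0.78) and HBEGF (0.66 and 0.98). FOSL1 is in these counts but entered the test only through its 12 and 24 h libraries, so its pass adds no support. Its 0 h libraries held 16, 4 and 10 counts. Of all tested genes 10.6% were higher and 8.16% lower at 12 h, and 11.6% and 9.48% at 24 h. Those that rose past 1.5-fold were 0.992% at 12 h and 1.53% at 24 h. FOSL1 and JUNB encode AP-1 subunits, MAFF a small MAF factor, DUSP2 a MAP kinase phosphatase and HBEGF a ligand of EGFR. JUN was lower at both times (-0.44 and -0.29), JUND, DUSP1 and ATF3 at 12 h (-0.19, -0.19 and -0.12) and BTG2 at 24 h (-0.27). DUSP1 lost its 12 h call without 0 h replicate 2 (-0.15), and ATF3 without 0 h replicate 2 (-0.10), 0 h replicate 3 (-0.097), 12 h replicate 2 (-0.11) or without 12 h replicate 3 (-0.10), while BTG2 passed at 12 h without 0 h replicate 2 (-0.12) and DUSP1 at 24 h without 0 h replicate 1 (-0.18). All of these genes but FOS were named after their values were seen. The fitted value of EGR1 was above those of the 27 at both times, and that of EGR2 was within its standard error of FOS, below which it fell at 12 h without 0 h replicate 1 (4.02 against 4.45).

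Between 12 and 24 h, 6 of these 27 genes were higher and 1 was lower by edgeR's adjusted p, beside 3.03% and 3.05% of all tested genes. Of 11 feedback genes of the ERK pathway, which encode phosphatases, Sprouty and SPRED proteins and ETS factors, 10 were higher at both times and 8 passed 1.5-fold, with median log2 fold changes of 1.0 and 1.2. The list was led by ETV4, at 0.160 ± 0.114, 14.6 ± 0.471 and 25.2 ± 1.78 CPM at 0, 12 and 24 h. ETV4 (16, 2 and 11 counts at 0 h) and SPRY4 (6, 6 and 0) entered the test only through their 12 and 24 h libraries. Both are in these counts, and their passes against 0 h add no support. Over all tested genes 10.6% were higher at 12 h and 11.6% at 24 h, and 0.992% and 1.53% rose past 1.5-fold. A further list held 6 factors linked to AU-rich mRNA decay, not all of which shorten the life of transcripts. Of these, 4 were higher at 12 h (ZFP36, ZFP36L1, HNRNPD and ELAVL1) and 3 at 24 h (ZFP36, ZFP36L1 and ELAVL1), named after their values were seen. ZFP36 had log2 fold changes of 0.36 and 0.52 and ZFP36L1 of 0.36 and 0.49. ZFP36 lost its 12 h call without 0 h replicate 1 (0.28) or without 12 h replicate 2 (0.28), and ELAVL1 its calls without 12 h replicate 2 (0.11) and 24 h replicate 1 (0.10). The median of the decay list was 0.15 at 12 h and 0.11 at 24 h.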

How the data were processed

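RNA was sequenced from LNCaP cells in 9 libraries, 3 at each of 0, 12 and 24 h of NRG1. The authors prepared TruSeq mRNA libraries, trimmed read pairs with Cutadapt, aligned them to GRCh38.p13 with STAR and used featureCounts for the counts per gene. Strand setting and treatment of reads that map to several places are not given in the sources used here. The authors left out 1 time 0 replicate of LNCaP for its quality and do not name its treatment, but their captions give 3 replicates for NRG1 and fewer in places for ASPN, a second treatment, so it would belong to the ASPN samples. The deposited values are raw counts, not pooled or normalized. Of the columns, 14 were empty and not used. Precision from 47016302 to 60985825 counts a library covers counting error only, as do the exact intervals of count ratios.

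Groups came from the sample titles. Genes were kept with filterByExpr, scaled with TMM and fitted with edgeR 4.0.16 (robust quasi-likelihood, all 9 libraries, no covariate) in R 4.3.3. P-values were adjusted by Benjamini and Hochberg over 19250 genes, and the limits were 0.05 and, where stated, 1.5-fold. Standard errors came from the F statistic. The common biological coefficient of variation was 4.07%, and replicate pairs differed by more than sampling noise, with chi-square over degrees of freedom of at least 3.10. The methods were tested on simulated counts. Exon lengths came from GENCODE v44, where EGR2 has another span than in the count table. BLAST 2.17.0 compared longest transcripts.

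The members and lists were chosen with earlier results of these data known. Named were the 10 genes, from each list the largest rise and fall at 24 h past both limits, NAB1, NAB2, FOS and ELK3, and the 3 genes nearest to each member called at both times (average log2 CPM of at least 2). Others are marked as named after their values were seen. Alternatives were DESeq2 1.42.0, median-of-ratios factors, no scaling, no fold threshold, a fit of the 6 libraries of a comparison alone, the replicate number as a block, no filter, a minimum of 10 counts in every library, each library left out in turn and, chosen after seeing the data, thinning to the smallest library.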

Additional observations from a re-analysis of the deposited data

Results flagged for a closer look

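Of the genes named here, 14 had effects at 12 h and 24 h that differed by the direct edgeR test of 24 h against 12 h, 9 of them higher and 5 lower at 24 h, and none is an EGR, IER or KLF gene. The log2 fold changes in that comparison were 0.43 for ZYX (edgeR adjusted p 2.53e-09), 0.79 for ETV4 (2.5e-08), 0.42 for DUSP6 (0.00268), 0.40 for ETV5 (0.00208) and 0.28 for FOS (0.00199). Of the genes named after their values were seen, HBEGF was higher by 0.31, JUN by 0.15, JUND by 0.15 and ZFP36L1 by 0.13. The lower genes were BTG2 (-0.17), TPM4 (-0.16), TAGLN2 (-0.14), HNRNPD (-0.13) and CFL1 (-0.12).

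Single libraries decided some of these calls. BTG2 did not pass without 24 h replicate 3 (-0.14), HBEGF without replicate 1 of 12 h or replicate 1 or 3 of 24 h (each 0.28), JUN without 12 h replicate 3 (0.13) or 24 h replicate 3 (0.12) and HNRNPD without 12 h replicate 2 (-0.12) or 12 h replicate 3 (-0.11). TAGLN2 lost its call without replicate 1 or 2 of 12 h (-0.13 and -0.14) or replicate 1 or 3 of 24 h (-0.13 each), and ZFP36L1 without replicate 1 or 3 of 12 h (0.12 and 0.14) or replicate 2 or 3 of 24 h (0.13 and 0.12), or with no filter (0.13). CFL1 lost its call without 0 h replicate 3, any 12 h library or 24 h replicate 3 (-0.14 to -0.077). No group had the 4 samples needed for a test of outlying libraries.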

How the results depend on the processing

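Replicate numbers did not pair the libraries. Deviations of same-numbered libraries from their group means correlated at -0.037 to 0.029 in 9 pairs. With the replicate block, PHLDA1 at 24 h had a log2 fold change of -0.49 (edgeR adjusted p 0.0565) and KLF9 at 24 h passed, at -0.10 (0.0396). Requiring 10 counts in every library left 1 of the 10 genes past both limits at 12 h and 1 at 24 h, since EGR2 was no longer tested. Without the fold threshold 5 and 6 of the genes passed at 12 and 24 h, and over all genes 3605, 4065 and 1171 passed at 12 h, at 24 h and between them. Over all genes, the count between 12 and 24 h was 87, and 55 to 101 in fits without 1 library, lowest without 12 h replicate 2. EGR1, IER2 and KLF10 passed at both times in all alternatives run, and EGR2 in all in which it was tested. For EGR2 this adds no support, since it entered the test only through its 12 and 24 h libraries.

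Values that changed sign did not pass in either fit, and their cause was not tested. In fits without 1 library the log2 fold change from 12 to 24 h was -0.065 to 0.37 in EGR2, -0.27 to 0.75 in EGR3, -0.033 to 0.027 in IER2, -0.036 to 0.0081 in KLF10 and -0.11 to 0.14 in PHLDA1. Against 0 h it was -0.069 to 0.049 in IER5 at 12 h, -0.49 to 0.54 in EGR3 at 24 h, -0.041 to 0.13 in NAB2 at 12 h, -0.17 to 0.0014 in IER5L at 12 h and -0.0040 to 0.028 in TPM4 at 24 h. The 12 to 24 h value of KLF10 was 0.0083 after thinning and that of PHLDA1 0.0088 without scaling. Depth limited EGR2, EGR3 and IER3 most, with at most 41, 35 and 10 counts in a library.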
